A study of Drosophila melanogaster with 4 samples.

Results

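The Eig71E genes of Drosophila melanogaster are late genes of the ecdysone response that lie together in a single puff of the salivary gland chromosomes. The 10 genes considered here, Eig71Ea to Eig71Ej, were taken by symbol from the platform annotation, a rule that uses no measured value. A probe annotated with exactly 1 of these symbols was found for 8 of the 10, against 11980 named genes on the array. Eig71Eb and Eig71Ec had no such probe and are not described. Each of these 8 genes had 1 probe, so none of their values is a mean over probes. The arrays compared larvae of the invadolysin mutant 4Y7 with larvae of the wild type Canton S. Each of the 4 arrays held 1 mutant and 1 wild-type RNA sample, labelled with the dyes Cy5 and Cy3. Cy5 marked the mutant on replicates 1 and 4, called mutant-Cy5 arrays below, and Cy3 marked it on replicates 2 and 3, called mutant-Cy3 arrays. The lesion of 4Y7, the age and sex of the larvae and the number of larvae per sample are not known here.

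Ecdysone acts through a receptor made of EcR and Usp. At the end of larval life the hormone first induces a few early genes, among them the transcription factor gene br, and early proteins then switch on late genes such as the Eig71E family. Most Eig71E genes encode small secreted polypeptides with many cysteines, made in the salivary gland around puparium formation, after the glue proteins that fix the animal to its substrate. Eig71Ee differs from these in encoding a mucin-like protein that has been found in the salivary secretion and in the haemolymph clot.

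Values are deposited log ratios, taken to be log2 from their range and read as mutant over wild type. The direction is likely, from the wording of the titles, and is not stated. If it ran the other way, every "higher" here would be "lower". The swapped arrays were read as already turned, because arrays of opposite dye orientation correlated at or above 0 over probes (Pearson r from 0.031 to 0.401), none of them clearly below 0. Arrays of the same orientation correlated at 0.651 (replicates 2 and 3) and 0.213 (replicates 1 and 4). Replicate 4 correlated with replicates 2 and 3, of the other orientation, at only 0.031 and 0.039, so the correlations do not settle how the signs were coded. Read as deposited, 114 features had a limma adjusted p under 0.05 and 2670 an unadjusted p under 0.05. With the signs of the swapped arrays turned, these counts were 0 and 1053. A ratio shows relative abundance in larval RNA, for which the labels name no tissue, so fewer cells of a type and less RNA per cell cannot be told apart, and whether a gene was present at all is not shown. Nothing in the labels says that the samples came from separate cultures, so p-values measure the spread between these samples, which may be technical. The probe of Invadolysin, the mutated gene, had log2 ratios of -0.12, 0.11, 0.16 and 0.25 on replicates 1 to 4 (limma adjusted p = 0.761), and it is unknown whether that probe lies in the altered part of the gene.

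None of the 8 measured Eig71E genes passed the adjusted threshold of 0.05 for a difference between mutant and wild type. In limma 0 of 8 passed, against 0.821% of all 13891 features, and 1 of 8 had an unadjusted p under 0.05, against 19.2% of all features. At a background this low, 0 of 8 does not set the genes apart from the rest of the array. The mean ratio was above 0 for 7 genes and below 0 for 1, with a median over the 8 genes of 0.25 on the log2 scale. Over all features that median was 0.015, and 51.5% of features had a mean above 0. The 95% limits of the mean stayed within 1 log2 unit of 0, a 2-fold change either way, for 7 of the 8 genes. Eig71Ee was the exception.

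**Figure D1:**
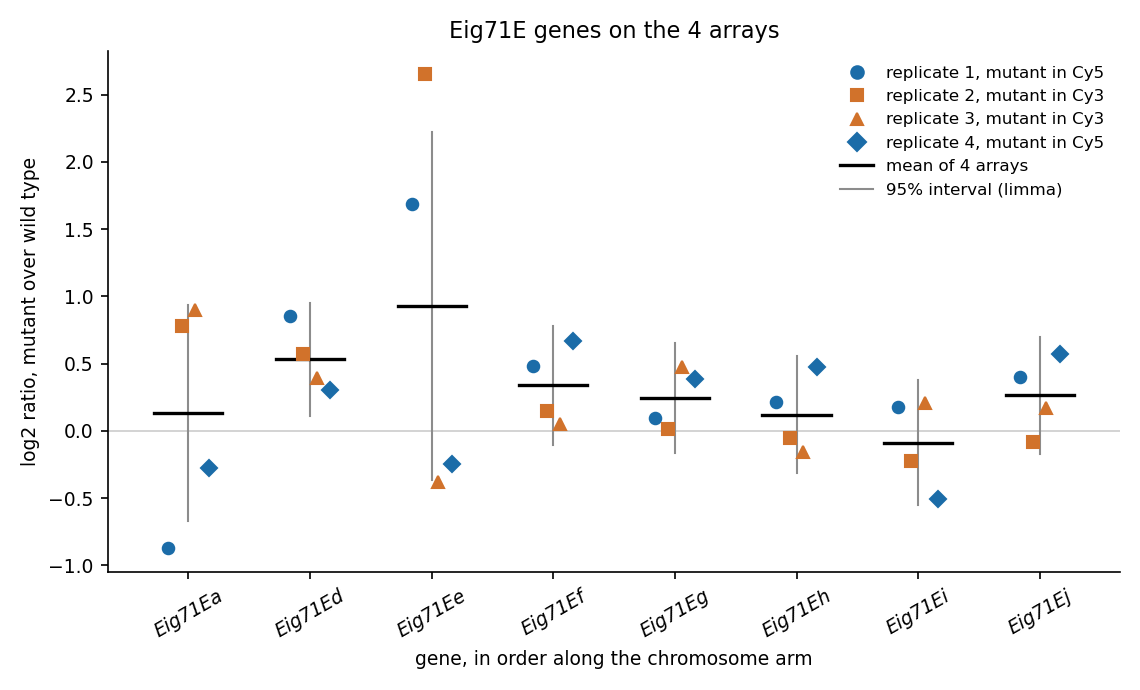
Log2 ratio of mutant over wild type (vertical axis) for the 8 measured Eig71E genes in their order along the chromosome arm (horizontal axis), with 1 point per array, the mean of the 4 arrays as a black bar and its limma 95% interval as a grey line. Eig71Ee spans 3.03 log2 units across arrays, and Eig71Ed is above 0 on all 4.

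Eig71Ed, one of the small cysteine-rich peptide genes, had the smallest p of the family. Its log2 ratios were 0.86, 0.57, 0.39 and 0.31 on replicates 1 to 4, all above 0. The mean was 0.53 ± 0.24 (SD, n = 4), or 1.45-fold, with a 95% interval of 0.11 to 0.95 and limma adjusted p = 0.181 (unadjusted p = 0.0207). Eig71Ef and Eig71Eg, next to each other on the arm, were also above 0 on all 4 arrays. Eig71Ef was at 0.48, 0.15, 0.049 and 0.67 (mean 0.34 ± 0.29, 95% interval -0.10 to 0.78, limma adjusted p = 0.362). Eig71Eg was at 0.094, 0.014, 0.47 and 0.39 (mean 0.24 ± 0.22, 95% interval -0.17 to 0.65, limma adjusted p = 0.472). Thus 3 of the 8 genes lay above 0 on every array and 0 lay below 0 on every array, while 14.0% of all features were above 0 on every array. The arrays that stood highest differed among the 3 genes: replicate 1 for Eig71Ed, replicate 4 for Eig71Ef and replicate 3 for Eig71Eg.

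Further short peptide genes had ratios on both sides of 0. Eig71Ej had log2 ratios of 0.40, -0.081, 0.17 and 0.57 (mean 0.26 ± 0.28, 95% interval -0.17 to 0.70, limma adjusted p = 0.461). Eig71Eh was at 0.22, -0.052, -0.16 and 0.47 (mean 0.12 ± 0.28, 95% interval -0.32 to 0.56, limma adjusted p = 0.742). In both genes replicate 4 was highest and replicate 1 next. Eig71Ei was the gene with a mean below 0, with values of 0.17, -0.22, 0.20 and -0.51 (mean -0.088 ± 0.34, 95% interval -0.55 to 0.38, limma adjusted p = 0.833). Its replicate 4 was the lowest, where the same array was the highest for Eig71Eh and Eig71Ej on either side of it. Eig71Ek, a further gene of the cluster that lies next to Eig71Ej, had values of 0.11, 0.024, 0.31 and -0.97 (mean -0.13 ± 0.57, limma adjusted p = 0.804), also lowest on replicate 4.

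Eig71Ea, at the start of the cluster, split by dye. Its log2 ratios were -0.88 and -0.28 on the mutant-Cy5 arrays, and 0.78 and 0.90 on the mutant-Cy3 arrays. The ratios of these array pairs lay on opposite sides of 0 and did not overlap. The mean over the 4 arrays was 0.13 ± 0.85 (95% interval -0.67 to 0.94, limma adjusted p = 0.855). Fitted with a dye term, the mean of the mutant-Cy5 arrays minus that of the mutant-Cy3 arrays was -1.42 (limma unadjusted p = 0.00797, adjusted p = 0.295). That term passed the adjusted threshold for 0 of all features, and 2208 had an unadjusted p under 0.05. With the signs of the swapped arrays turned, the mean of Eig71Ea was -0.71 ± 0.29, with 4 of 4 values below 0 (limma adjusted p = 0.65). Its direction therefore rests on how the deposited ratios were coded.

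Eig71Ef, Eig71Eh and Eig71Ej leaned the other way. Each was higher on both mutant-Cy5 than on both mutant-Cy3 arrays, by 0.48, 0.45 and 0.44 in the mean (limma adjusted p of the dye term 0.401, 0.434 and 0.44). Such an order was found for 3 of the 8 genes, and the reverse order for 1, Eig71Ea. Over all features these orders made up 27.9% and 26.1%. Eig71Ed and Eig71Eg had nearly the same mean in both orientations, 0.58 on mutant-Cy5 and 0.48 on mutant-Cy3 arrays for Eig71Ed, and 0.24 on either pair for Eig71Eg. With the swapped signs turned, 4 of the 8 genes had a mean above 0 and 4 below 0, and the median over the genes was 0.024. A turned mean holds only the difference between the orientations, so a gene with like values on all 4 arrays falls near 0.

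**Figure D2:**
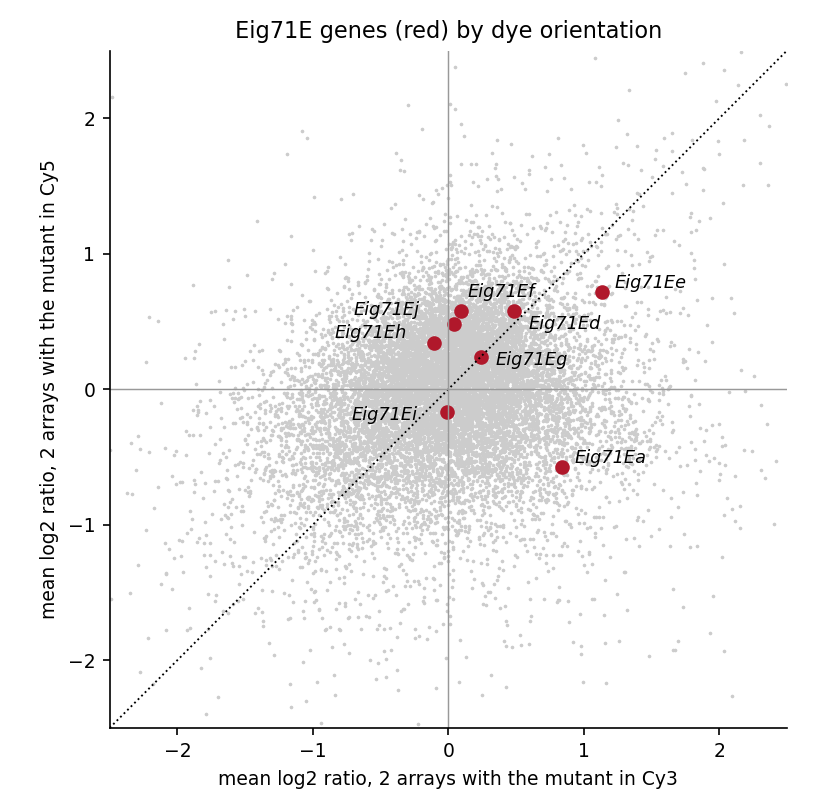
Mean log2 ratio over the 2 mutant-Cy5 arrays (vertical axis) against the mean over the 2 mutant-Cy3 arrays (horizontal axis), for the 8 Eig71E genes in red and all features within the axes in grey, with a dotted line where both are equal. Eig71Ea lies at -0.58 on the vertical and 0.84 on the horizontal axis, on opposite sides of 0, and Eig71Ed and Eig71Eg lie near the dotted line.

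Eig71Ee, the mucin-like gene, had the widest spread between arrays of the 8 genes. Its log2 ratios were 1.69 and 2.65 on replicates 1 and 2, and -0.38 and -0.25 on replicates 3 and 4. The mutant sample thus held 6.28 times the wild-type level on replicate 2 and 0.77 times on replicate 3. The mean was 0.93 ± 1.49 (1.90-fold, 95% interval -0.37 to 2.23, limma adjusted p = 0.394), and without replicate 2 it was 0.35. Its standard deviation was larger than that of 97.5% of all features. The high and low pairs each held 1 array of either dye orientation, and the means were 0.72 on mutant-Cy5 and 1.14 on mutant-Cy3 arrays. On replicates 1 and 2 Eig71Ee was the highest of the 8 genes, and on replicate 3 it was the lowest. Without Eig71Ee the mean of the remaining 7 genes was 0.22 ± 0.054 (SD of array means, n = 4), and with it 0.31 ± 0.14. In that mean of 7, Eig71Ea offsets Eig71Ef, Eig71Eh and Eig71Ej, which lean the other way by dye, so the small SD does not show that the genes held steady. The medians of the 7 genes varied more, at 0.22, 0.014, 0.20 and 0.39 on replicates 1 to 4.

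The genes whose ratios ran closest to those of Eig71Ee included salivary glue genes. This comparison was chosen after the values were seen, and likeness was measured as Euclidean distance over the 4 arrays among 11972 named genes outside the family. Sgs5, a glue protein gene, was nearest (distance 0.45), with 1.76, 2.33, -0.31 and 0.059 on replicates 1 to 4. Next came CG10252 (0.94), CG31226 (0.96), cer (1.28) and Cpr78E, a cuticle protein gene (1.35). The other measured glue genes ranked 9 (Sgs5bis), 13 (Sgs1) and 19 (Sgs4). Sgs4 was at 2.52, 2.56, 0.22 and 1.07, so it too was highest on replicates 1 and 2. Sgs1 and Sgs5bis were highest on replicate 2, at 2.22 and 2.06, and were at most 0.75 on the other arrays. These distances describe 4 arrays that all the genes share and carry no test.

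The new glue genes, expressed in the same gland earlier in larval life, did not follow that order. The log2 ratios of ng2 were 1.68, 0.93, 1.74 and 2.74, lowest on replicate 2 where Eig71Ee was highest. Those of ng3 were 1.30, 0.53, 1.38 and 0.70, and those of ng1 were 0.61, 0.21, 1.20 and 0.85. By distance to Eig71Ee, ng1, ng2, ng3 and ng4 ranked 5802, 10291, 2778 and 8952. The fat body markers measured, Lsp2, Fbp1 and Fbp2 (3 of 6 listed), also varied widely, with medians of 3.53, 0.60, -2.02 and 0.50 on replicates 1 to 4. The 3 genes differed from each other on replicates 1 and 2, and each was lowest on replicate 3. Fbp1 was at -0.28, 1.92, -1.09 and 0.50, and Fbp2 at 3.53, -0.36, -2.02 and -0.046. Lsp2, a larval serum protein gene whose transcript builds up late in larval life, was at 3.91, 0.60, -6.44 and 1.0, and Obp99b, named after its values were seen, was at 1.06, -0.20, -5.76 and 0.0023. Both were far lower on replicate 3 than on any other array. The medians of the 11 measured late and stage genes were 0.80, 0.60, 0.11 and 0.0023 on replicates 1 to 4. These medians fall on different genes from array to array, and most of the 11 genes did not share that order. Only dor and Obp99a were higher on both replicates 1 and 2 than on both replicates 3 and 4, and Edg91, ple and Edg84A were highest on replicate 3. The part of stage differences in the Eig71Ee values was not tested. Markers of muscle (2 of 4 measured) and of blood cells (4 of 4) had medians over genes of -0.73 and -0.35, with 0 called, against 0.821% of all features. The mean was above 0 for 0 of the 2 muscle genes and for 2 of the 4 blood cell genes. The blood cell medians were 0.23, -0.65, -0.65 and -0.013 on replicates 1 to 4.

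**Figure D3:**
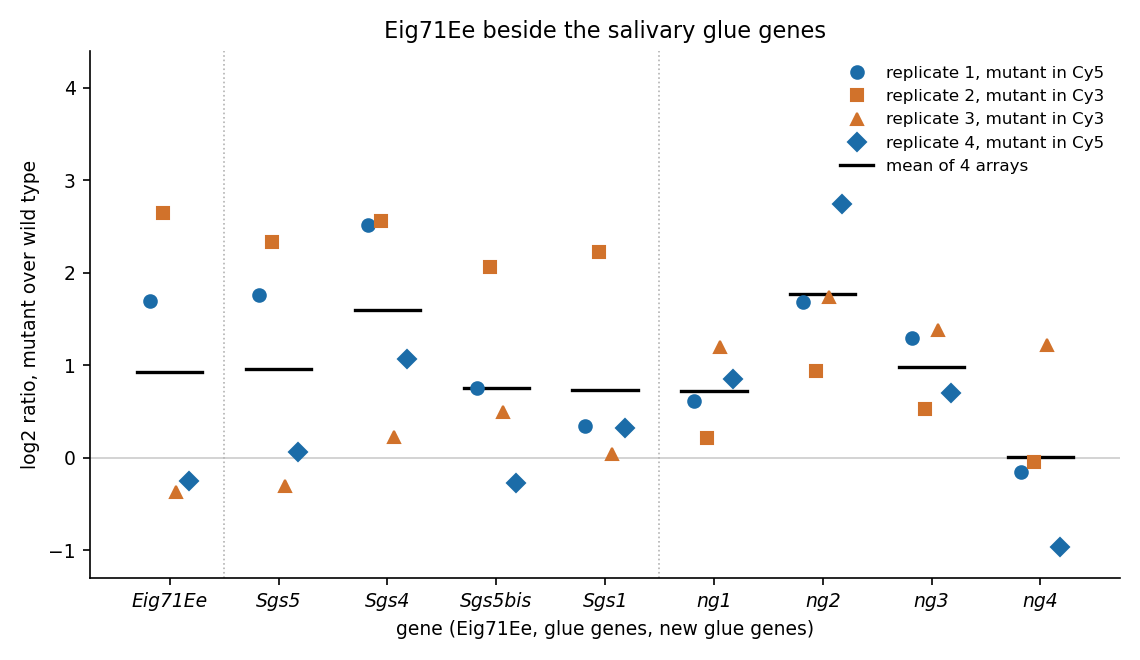
Log2 ratio of mutant over wild type (vertical axis) for Eig71Ee, 4 glue genes and 4 new glue genes (horizontal axis), with 1 point per array and the mean of the 4 arrays as a bar. Eig71Ee and Sgs5 share high values on replicates 1 and 2 and values near 0 on replicates 3 and 4, while ng2 is lowest on replicate 2.

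Glue and new glue genes as a list were centred above 0, with 0 called. Of 11 listed genes 8 were measured, 0 passed in either direction, and all 8 means were above 0, with a median of 0.86. The mean of ng4 was barely so, at 0.012 (limma adjusted p = 0.988). Its values were -0.15, -0.049, 1.22 and -0.97 on replicates 1 to 4, above 0 on 1 array only. The adjusted threshold was passed by 0.821% of all features, so 0 calls in a list this short does not set it apart. A limma unadjusted p under 0.05 was found for 4 of the 8, against 19.2% of all features. The smallest p belonged to ng2 (mean 1.77 ± 0.74, limma adjusted p = 0.0602), ng3 (0.98 ± 0.43, limma adjusted p = 0.0887), Sgs4 (1.59 ± 1.15, limma adjusted p = 0.131) and ng1 (0.72 ± 0.41, limma adjusted p = 0.149). With the swapped signs turned the median of the list was -0.018, a value that reflects only the difference between the dye orientations. Genes that mark the gland itself were centred lower. Of 8 listed 5 were measured, 0 were called and 1 had a limma unadjusted p under 0.05. Of the 5 means 2 were above 0 and 3 below, and the median was -0.11. PH4alphaSG2, a salivary gland prolyl hydroxylase gene, was at -0.50 ± 0.29 (limma adjusted p = 0.219), and Scr, the Hox gene that specifies the gland, was at -0.75 ± 0.79 (limma adjusted p = 0.262). On the other side of 0 lay PH4alphaSG1, a second such hydroxylase gene (0.30 ± 0.48, limma adjusted p = 0.502), and fkh, a transcription factor gene of the gland (0.32 ± 0.93, limma adjusted p = 0.654), while sage, another such factor gene, was at -0.11 ± 0.78. A marker list of the gland that also holds glue genes (8 of 12 measured) had 7 means above 0, a median of 0.85 and 0 calls.

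Upstream genes of the ecdysone cascade gave 0 calls in either direction as well, against 0.821% of all features. Those 0s do not show that the cascade was unchanged. A limma unadjusted p under 0.05 was found for 6 of 20 receptor and early response genes and 2 of 9 synthesis and breakdown genes, against 19.2% of all features. Among receptor and early response genes, 20 of 26 were measured, 12 means were above 0 and 8 below, and the median was 0.17 (0.0032 without replicate 4). Eip74EF and Eip75B were listed but not measured, so nothing is shown for them. The receptor genes EcR and usp, named for their role after their values were seen, were at -0.053 ± 0.36 and -0.20 ± 0.26. The gene br, named likewise and required for expression of Eig71E genes, is given as a mean over 5 probes, which was -0.077, -0.52, -1.83 and -0.17 on replicates 1 to 4 (mean -0.65 ± 0.81, limma adjusted p = 0.325), lowest on replicate 3. Smallest in p were Cth, long known as Eip55E (-0.84 ± 0.42, limma adjusted p = 0.115), ImpE2, an ecdysone-inducible gene of imaginal discs (0.65 ± 0.23, limma adjusted p = 0.127), and the nuclear receptor genes Hr3 (-0.70 ± 0.31, limma adjusted p = 0.131) and Hr38 (mean over 2 probes, -0.51 ± 0.18, limma adjusted p = 0.179). By the single probe with the smallest p, br was at -0.98 (limma adjusted p = 0.232) and Hr38 at -0.77 (limma adjusted p = 0.0822). Cth, Hr3 and Hr38 were below 0 on all 4 arrays and ImpE2 above 0 on all 4.

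Ecdysone synthesis and breakdown genes had a median of 0.051 (9 of 17 measured, 0 called). Within them dib, which encodes a hydroxylase of ecdysone synthesis, was at -0.82 ± 0.52 (limma adjusted p = 0.148), and Ptth, which encodes the brain hormone that starts ecdysone release, was at 0.58 ± 0.21 (limma adjusted p = 0.15). Of 14 late and stage genes 11 were measured, 0 were called, 3 had a limma unadjusted p under 0.05, and the median was 0.26. That median ran from 0.086 without replicate 2 to 0.71 without replicate 3, while the Eig71E median of 0.25 ran from 0.21 to 0.34 with an array left out. Edg91, a glycine-rich cuticle gene of prepupae, had the smallest p, with log2 ratios of 1.04, 1.46, 1.56 and 0.93 (mean 1.25 ± 0.31, limma adjusted p = 0.0521). The dopamine synthesis genes ple (1.16 ± 0.37, limma adjusted p = 0.0616) and Ddc (0.95 ± 0.53, limma adjusted p = 0.116), which serve cuticle tanning, were above 0 on all 4 arrays, and Edg78E was at -0.53 ± 0.49 (limma adjusted p = 0.272).

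**Figure D4:**
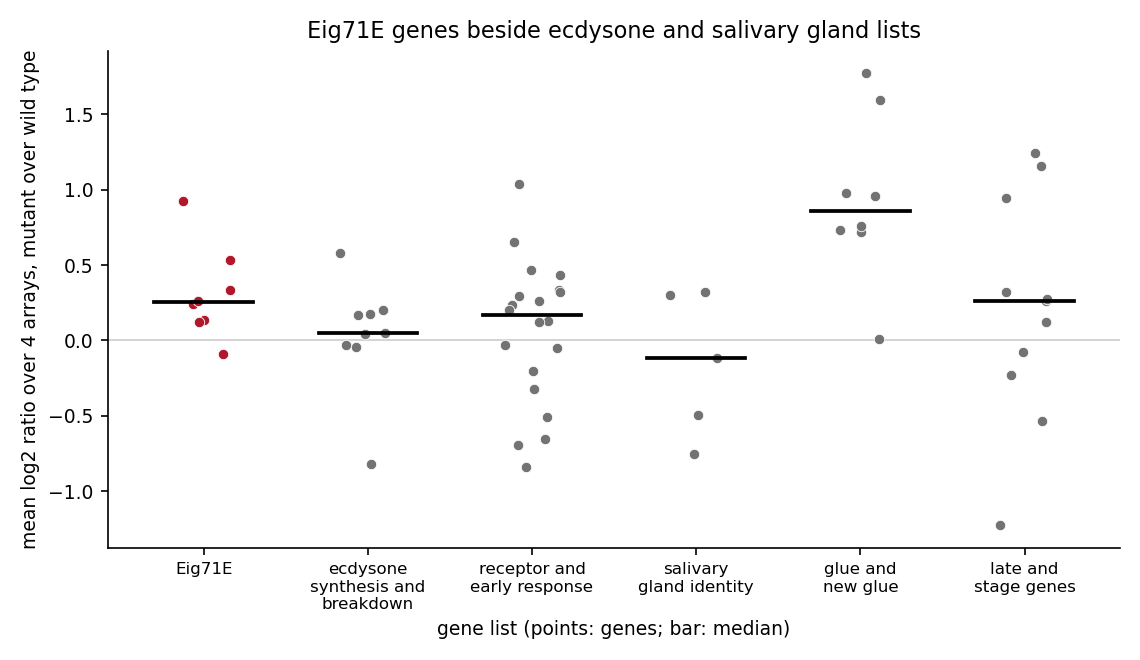
Mean log2 ratio of mutant over wild type over the 4 arrays (vertical axis) for each measured gene of the Eig71E family in red and of 5 lists in grey (horizontal axis), with the median as a black bar and sideways scatter only to separate points. The Eig71E median of 0.25 lies between those of the glue list (0.86) and the gland identity list (-0.11).

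The cluster lies on arm 3L. From Eig71Ea to Eig71Ej the gene table lists 11 genes, and the 1 that is no member, CG43084, had no named probe. Of the 5 nearest measured genes on each side, 0 of 10 were called, against 0.821% of all features. Of these 10 genes 8 had a mean above 0 and 2 below, and the median was 0.15. The lowest adjusted p there was that of comm, an axon guidance gene (mean 0.73 ± 0.23, limma adjusted p = 0.0987). CG7650 had the lowest mean, with values of -3.05, -1.37, -6.08 and 1.05 (mean -2.36 ± 3.00, limma adjusted p = 0.285).

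Among the 8 Eig71E genes, Eig71Ef and Eig71Ej ran closest together (Euclidean distance 0.29 over the 4 arrays), followed by Eig71Eh and Eig71Ej (0.39) and by Eig71Ef and Eig71Eh (0.44). Neighbours on the arm were not always alike: Eig71Ee and Eig71Ef lay 2.96 apart and Eig71Eh and Eig71Ei 1.06. Eig71Ea and Eig71Ee were the least alike pair, at 3.42. The family's mean per array was 0.38, 0.48, 0.21 and 0.17 on replicates 1 to 4. The other genes nearest to that mean were Delta, which encodes a Notch ligand (0.34, 0.49, 0.27 and 0.15), spas, which encodes the microtubule-severing protein spastin, Pkd2, a cation channel gene, CG31554 and CG13771, at distances of 0.078 to 0.13. The mean of the 8 genes is within 1 log2 unit of 0 on every array, and these names are given as a description only.

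Among the alternatives, 2 ways of fitting called some of the genes. With limma array weights, which gave replicate 2 a weight of 5.47 and replicate 4 a weight of 0.23, 3 of 8 passed, Eig71Ea (0.66, limma adjusted p = 0.0383), Eig71Ed (0.55, limma adjusted p = 0.00833) and Eig71Ee (1.91, limma adjusted p = 0.0246). That fit called 43.8% of all features, a like share. Within the mutant-Cy3 arrays alone, 1 of 8 passed, Eig71Ea (0.84, limma adjusted p = 0.0408), against 18.5% of all features.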

How the data were processed

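The deposited values are 1 log2 ratio per probe and array, made by the authors from 2-colour arrays. The normalization, log base and direction of these ratios are stated nowhere in the labels or file headers, and base 2 was inferred from values down to -13.2. By the platform annotation 12658 of 14569 probes carried 1 gene symbol, 96 several and 1815 none. Probes of 1 symbol were averaged per array, giving 13891 features. A moderated two-sided test of the mean against 0 was run per feature (limma 3.58.1, functions lmFit and eBayes, under R 4.3.3), with Benjamini-Hochberg adjustment over all features and a threshold of 0.05. No channel brightness was used here, so a ratio near 0 from a dim probe cannot be recognised, and the 4 arrays limit the precision.

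The family and the lists were chosen with earlier results of these data known, while the members of the family were taken by symbol alone. The rule for naming genes took the members, Eig71Ek, up to 4 genes per list by p, cluster neighbours and the 5 genes nearest the family mean. Lists were described by counts and medians without a set test. The fit was tested on simulated data. Alternatives were array weights, a dye term, scale and quantile normalization, median centring, turned signs, single probes, each dye orientation alone and leaving out each replicate. The gene table (Release 6 plus ISO1 MT) gave names and gene order only. Figures used Python 3.11.15 and matplotlib 3.10.9.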

Additional observations from a re-analysis of the deposited data

Results flagged for a closer look

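The glue gene Sgs1 had a lone array. Its log2 ratio was 2.22 on replicate 2 and 0.35, 0.039 and 0.32 on replicates 1, 3 and 4. The gap below replicate 2 made up 0.86 of the whole range. Of 50 values examined in this way, among them the 8 Eig71E genes and their mean per array, this was the 1 that stood out, and chance alone would mark about 5%. None of the Eig71E genes had such an array.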

How the results depend on the processing

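The count of called Eig71E genes stayed at 0 under every alternative but array weights (3) and the mutant-Cy3 arrays alone (1), and at 0 without any replicate. The count over all features, 114, was 0 with a dye term, 0 with turned signs, 6079 with array weights, 4 within the mutant-Cy5 arrays, 2573 within the mutant-Cy3 arrays, and 0 to 21 with a replicate left out. The fits with fewer arrays or a dye term have fewer residual degrees of freedom, yet the mutant-Cy3 arrays alone gave more calls than all 4 arrays. What moved these counts was not tested. List members called, 0 in all, numbered 1 with scale normalization, 1 with quantile normalization, 26 with array weights and 7 in the mutant-Cy3 arrays.

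Of 637 values of 49 named genes under alternatives, 582 kept their direction and 55 did not. Many of the 582 could hardly turn, so that count does not measure how steady the directions are. With balanced dyes the dye term leaves the mean as it was, and single probes repeat the value of a gene with 1 probe. Median centring moved the means only slightly. Turned signs leave in the mean only the difference between the dye orientations. A gene with like values on all 4 arrays then falls near 0 with either sign. Such a reversal does not show that its direction as deposited is unsteady. Edg91 and ple, above 0 on all 4 arrays as deposited, are among the reversals given below. With a replicate left out the means ran from -0.12 to 0.47 (Eig71Ea), -0.18 to 0.052 (Eig71Ei), -0.28 to 0.15 (Eig71Ek), -0.39 to 0.34 (ng4), -0.19 to 0.090 (EcR), -1.61 to 1.84 (Lsp2), -0.29 to 0.71 (Fbp1), -0.81 to 1.04 (Fbp2) and -1.98 to 0.29 (Obp99b), and list medians from -0.30 to 0.099 (gland identity), 0.0032 to 0.21 (early response) and 0.086 to 0.71 (late and stage genes). Array weights turned Eig71Eh (-0.038), Eig71Ek (0.057), Fbp2 (-0.42) and the medians of the early response (-0.039), synthesis (-0.026) and gland identity (0.11) lists. Within the mutant-Cy3 arrays, Eig71Eh (-0.10), Eig71Ek (0.17), Fbp2 (-1.19) and the same 3 medians (-0.020, -0.016 and 0.24) turned. Within the mutant-Cy5 arrays, EcR (0.22), Eig71Ea (-0.58), Lsp2 (2.45), Obp99b (0.53) and ng4 (-0.56) turned, and under quantile normalization Lsp2 (0.53). Turned signs reversed Eig71Ea (-0.71), Eig71Ee (-0.21), Eig71Eg (-0.0018), Sgs1 (-0.40), Sgs5 (-0.051), Sgs5bis (-0.52), ng4 (-0.57), Cth (0.33), EcR (0.28), usp (0.17), br (0.53), Hr3 (0.012), Hr38 (0.084), Eip93F (-0.27), dib (0.33), Ptth (-0.033), Scr (0.60), PH4alphaSG2 (0.11), Edg78E (0.34), Edg91 (-0.26), ple (-0.015), Ddc (-0.41), Fbp1 (-0.16), Lsp2 (2.69), Obp99b (1.75), CG7650 (1.36), CG10252 (-0.44), CG31226 (-0.27), cer (-0.35), Cpr78E (-0.071), Delta (-0.067), CG31554 (-0.044), CG13771 (-0.027) and the medians of the late (-0.049), gland identity (0.062) and glue (-0.018) lists. Each ratio pairs 1 mutant with 1 wild-type sample on the same array, so the test against 0 is paired as it stands and has no unpaired counterpart here. How far above background the Eig71E probes lay is not known here.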
